A study of Homo sapiens with 18 samples.

Results

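Dexamethasone and RU486 were compared in H295R cells that carried an empty vector, whose glucocorticoid receptor is their own and not added. H295R cells are an established human line that was derived from a carcinoma of the adrenal cortex and still produces steroids. The control line was stably transfected with empty pcDNA4, and 3 arrays of it with dexamethasone were set against 3 with RU486, chosen by the sample titles from the 17 arrays that hold values. Both ligands were given at 100 nM for 6 h after serum starvation, which makes 1 pair of compounds at a matched dose and time. Used beside them were 3 control arrays with ethanol vehicle and the second stable line, which carries a non-inducible pcDNA4 for GRα and has 3 vehicle, 3 dexamethasone and 2 RU486 arrays. Each genotype is represented by 1 stable line, the labels do not say whether it is a clone, and Zeocin was in the growth medium of all cells.

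The glucocorticoid receptor, encoded by NR3C1, is a transcription factor that stays in the cytoplasm with chaperones until a steroid binds. It then enters the nucleus, where it activates genes through inverted repeats of a short half-site and lowers others, many of them through other factors. Dexamethasone is a synthetic agonist. RU486 (mifepristone) binds the same pocket and acts mostly as an antagonist, and it also blocks the progesterone receptor. Both are steroids: RU486 carries a bulky dimethylaminophenyl group on the C ring where dexamethasone has a hydroxyl group, and a propynyl group on the D ring. In the adrenal cortex glucocorticoid is the product of the cells themselves, made from cholesterol by a chain of P450 enzymes.

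Between the ligands, 67 of 18417 genes differed, 53 of them higher and 14 lower with dexamethasone. The threshold was an adjusted p (Benjamini-Hochberg) under 0.05 in a limma fit over all 17 arrays. The called genes were 0.364% of all genes tested, with 0.288% higher and 0.0760% lower. Values are log2 array signals, so a difference of 1 is a doubling. The median difference was 0.51 among the called higher genes and -0.39 among the called lower ones, and over all genes it was -0.006. ZBTB16 and SLC26A2, the 2 largest, were at least 1 log2 higher. Of the rest, 26 were at least 0.5 log2 higher, and RANBP3L alone was at least 0.5 log2 lower. The 3 arrays of each ligand did not overlap for any of the 67 genes, a condition that 14.4% of all genes also met. The number of arrays limits the precision. A p-value here sets a difference against a spread within groups that is estimated over all 17 arrays. The labels call the arrays biological replicates without naming separate cultures, so that spread may be technical.

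The 6 arrays were alike: over all genes their pairwise correlations ran from 0.9957 to 0.9971 within a ligand and from 0.9955 to 0.9968 between ligands. The total of 67 called genes was 33, 29 and 53 without RU486 replicate A, B or C and 37, 39 and 32 without dexamethasone replicate A, B or C. It was 113 without replicate B of vehicle-treated GRα cells, which enters only the shared estimate of the spread. Of the weights that limma can estimate per array, that of this array was the lowest, 0.194, and the next was 0.654. The main fit used no weights. In all 6 fits that leave out a compared array, 24 of the 53 higher and 2 of the 14 lower genes were called, the latter being RANBP3L and PPARGC1A. In none of these fits were FRY, COLCA1, MMD2, ASS1, MERTK, CSRNP1, NFKBIA, RNF150, FRMD4B and ANKDD1B called. In cultures measured in bulk, fewer cells with an RNA and less of it per cell cannot be told apart.

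**Figure D1:**
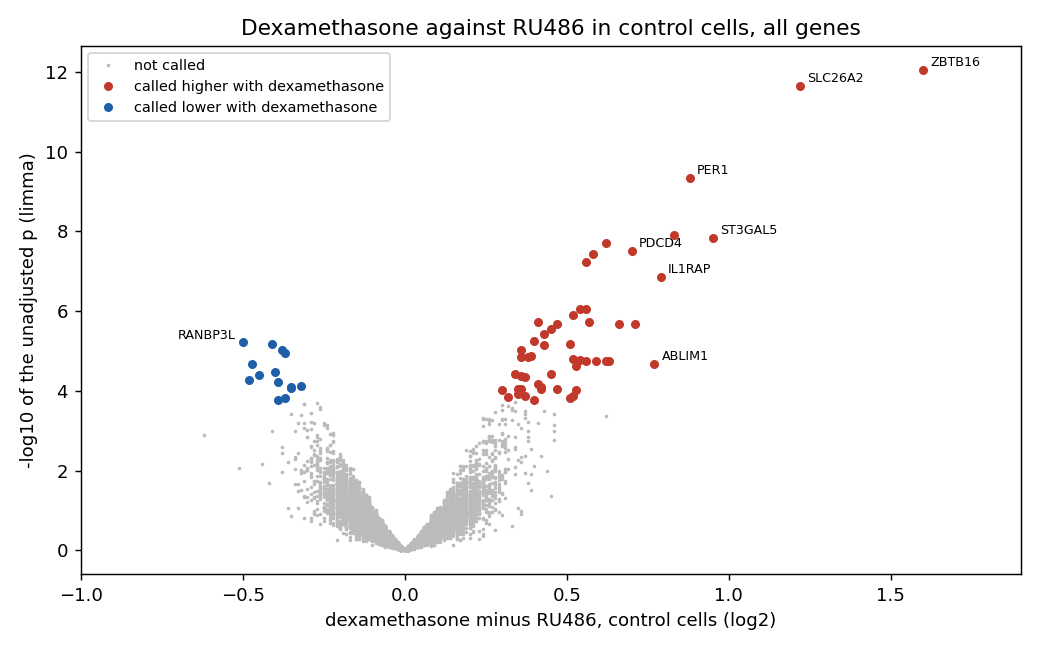
Each point is 1 of 18417 genes, with the log2 difference between dexamethasone and RU486 in control cells on the x axis and -log10 of the unadjusted limma p on the y axis; colours mark the genes called at an adjusted p under 0.05. The called genes higher with dexamethasone (53) reach 1.60 log2, and those lower (14) reach -0.50.

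Among regulators of transcription, ZBTB16 differed most. It encodes PLZF, a zinc finger repressor. Its log2 values with dexamethasone were 7.59, 7.60 and 7.66 in replicates A, B and C, and with RU486 6.03, 5.99 and 6.02. Each ligand's arrays lay close together, more than 1 log2 apart from the other's (difference 1.60 ± 0.09 SE, limma adjusted p = 1.64e-08). PER1, a repressor in the circadian clock, stood at 7.82, 7.93 and 7.74 with dexamethasone and at 6.87, 6.99 and 6.99 with RU486. Every dexamethasone array was above every RU486 array, by 0.88 ± 0.07 (SE) in the mean, with adjusted p = 2.8e-06. NR5A1, which encodes steroidogenic factor 1, the factor that drives steroidogenic genes in adrenal cells, read 8.94, 9.02 and 9.14 against 8.60, 8.45 and 8.53. The gap of 0.51 ± 0.08 (SE, adjusted p = 0.00524) was called in all 6 fits without 1 array, with an adjusted p of up to 0.0499.

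Differences in the same direction were called for further nuclear proteins. The homeobox gene MEIS1 was higher by 0.56 ± 0.06 (SE) and TSPYL2, a member of the nucleosome assembly protein family, by 0.62 ± 0.06. Both were called in all 6 fits without 1 array. BCL6, a zinc finger repressor, was higher by 0.41, ZNF521, another zinc finger gene, by 0.38 and JADE1, a scaffold of a histone acetyltransferase complex, by 0.34. CSRNP1, an immediate-early nuclear protein gene, was higher by 0.35 ± 0.07. BCL6 and JADE1 were called in 1 of the 6 fits without 1 array and ZNF521 in 3.

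Transporters and enzymes were among the called genes. SLC26A2, the sulfate transporter, stood at 8.89, 8.79 and 8.68 with dexamethasone against 7.59, 7.53 and 7.58 with RU486. The groups were more than 1 log2 apart (1.22 ± 0.07 SE, limma adjusted p = 2.08e-08). ST3GAL5, the synthase of ganglioside GM3, had values of 9.45, 9.24 and 9.33 against 8.35, 8.22 and 8.60. RU486 replicate C was the highest of its group and still 0.64 log2 below the lowest dexamethasone array (difference 0.95 ± 0.09 SE, adjusted p = 5.26e-05). A second sialyltransferase gene, ST3GAL1, was higher by 0.52 ± 0.07 (SE).

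CACNA2D3, an auxiliary subunit of voltage-gated calcium channels, read 6.90, 6.81 and 6.84 with dexamethasone and 6.13, 6.06 and 6.36 with RU486. RU486 replicate C was again the highest of its group, and the arrays did not overlap (0.66 ± 0.09 SE, limma adjusted p = 0.00219). ITPR1, the calcium release channel opened by inositol trisphosphate, was higher by 0.53 ± 0.09. ATP1B1, the beta subunit of the sodium pump, was higher by 0.43 ± 0.07 and SLC47A1, an exporter of organic cations, by 0.36 ± 0.07. ATP1B1 was called in all 6 fits without 1 array, and ITPR1 and SLC47A1 in 2.

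In receptors and signalling, IL1RAP, the shared co-receptor of the interleukin-1 family, stood at 7.64, 7.61 and 7.59 with dexamethasone and at 6.97, 6.73 and 6.77 with RU486. Its dexamethasone arrays differed by 0.05 log2 at most, and the difference was 0.79 ± 0.09 (SE, limma adjusted p = 0.000257). RASGRF1, an exchange factor that activates Ras, read 6.95, 6.89 and 6.98 against 6.26, 6.20 and 6.24. Both groups were tight (0.71 ± 0.10 SE, adjusted p = 0.00219). CXCR4, the receptor of the chemokine CXCL12, had 8.15, 8.02 and 8.03 against 7.48, 7.19 and 7.66. Its RU486 arrays spread over 0.47 log2 but stayed below all dexamethasone arrays (0.62 ± 0.10 SE, adjusted p = 0.00895), and it was called in 4 of the 6 fits without 1 array, with an adjusted p of up to 0.0696.

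OR7A5, listed as an olfactory receptor gene, stood at 5.32, 5.27 and 5.23 against 4.60, 4.44 and 4.30, with no overlap between the ligands (0.83 ± 0.08 SE, limma adjusted p = 5.26e-05). Its mean over the 6 arrays was below the first quartile of all genes, 5.55, where detection above background was not tested, and probes of this family may share sequence with its other members. TPRG1 and ANKDD1B were the other called genes below that quartile.

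ERRFI1, which binds and inhibits the EGF receptor, was higher by 0.58 ± 0.06 (SE) and DUSP6, a phosphatase of ERK, by 0.57 ± 0.08. The receptor genes ROR2 and FGFR1 were higher by 0.54 ± 0.07 and 0.53 ± 0.10, the hedgehog ligand SHH by 0.56 ± 0.07 and PRKCH, a protein kinase C, by 0.59 ± 0.10. MERTK, a receptor kinase for the uptake of dying cells, was higher by 0.35 ± 0.07, and NFKBIA, the cytoplasmic inhibitor of NF-kB, by 0.32 ± 0.07. ERRFI1, DUSP6, ROR2 and SHH were called in all 6 fits without 1 array, PRKCH in 3 and FGFR1 in 1.

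PDCD4, an inhibitor of the translation helicase eIF4A, was at 10.46, 10.31 and 10.38 with dexamethasone and at 9.71, 9.64 and 9.69 with RU486. The arrays of each ligand were tight and separate (0.70 ± 0.07 SE, limma adjusted p = 8.22e-05). ABLIM1, an actin-binding LIM protein gene, had 6.87, 6.65 and 7.04 against 5.92, 5.94 and 6.41. Both groups spread widely, and replicate C was the highest in each (0.77 ± 0.13 SE, adjusted p = 0.0102). MTSS1, which links actin to membranes, read 8.29, 8.35 and 8.33 against 7.61, 7.70 and 7.78, apart by 0.63 ± 0.11 (SE, adjusted p = 0.00895). ABLIM1 and MTSS1 were each called in 2 of the 6 fits without 1 array, with an adjusted p of up to 0.102 and 0.0773.

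The remaining higher genes differed by 0.30 to 0.56 log2. HERPUD1, a component of protein disposal at the endoplasmic reticulum, was higher by 0.47 ± 0.07 (SE). PRKAB2, a subunit of the AMP-activated kinase, was higher by 0.45 ± 0.08 and ASS1, an enzyme of arginine synthesis, by 0.36 ± 0.07. MREG, SAMD3, FRY, MPP3, COLCA1, TPRG1, CNST, INPP4A, FADS3, PHEX, RHOU, PLD6, PCDH20, RGL1, MMD2, TSPAN12, FRMD6, RASSF8 and RNF150 made up the rest.

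The 14 genes lower with dexamethasone than with RU486 differed by less. RANBP3L, which encodes a RAN-binding protein, stood at 7.06, 6.88 and 6.92 with dexamethasone and at 7.50, 7.37 and 7.49 with RU486. Every dexamethasone array was lower than every RU486 array (-0.50 ± 0.08 SE, limma adjusted p = 0.00508). PPARGC1A, a coactivator of mitochondrial and gluconeogenic genes that cAMP induces in other tissues, read 6.35, 6.26 and 6.33 against 6.77, 6.74 and 6.67. The arrays of each ligand were tight (-0.41 ± 0.06 SE, adjusted p = 0.00525). NR4A3, an orphan nuclear receptor of the immediate-early class, had 7.70, 7.71 and 7.52 against 8.20, 8.16 and 8.02. Replicate C was the lowest in both groups (-0.48 ± 0.09 SE, adjusted p = 0.0216), and the call was kept in 1 of the 6 fits without 1 array.

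ANXA1, which encodes annexin A1, a phospholipid-binding protein known as a mediator of glucocorticoid action in leukocytes, read 6.20, 6.23 and 6.08 with dexamethasone against 6.67, 6.79 and 6.46 with RU486. RU486 replicate C was nearest to the dexamethasone arrays (-0.47 ± 0.08 SE, limma adjusted p = 0.0102), and the gene was called in 3 of the 6 fits without 1 array. GPAT3, an acyltransferase of triglyceride synthesis, stood at 6.68, 6.49 and 6.41 against 6.98, 7.08 and 6.87, a difference of -0.45 ± 0.08 (SE, adjusted p = 0.0169). DKK1, a secreted inhibitor of Wnt signalling, stood at 6.28, 6.21 and 6.17 against 6.73, 6.61 and 6.52, a difference of -0.40 ± 0.07 (SE, adjusted p = 0.0155). Neither gene's arrays overlapped, and each was called in 2 of the 6 fits.

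KCNH5, a voltage-gated potassium channel gene, had 6.33, 6.29 and 6.18 with dexamethasone and 6.75, 6.66 and 6.57 with RU486. ANKDD1B, an ankyrin repeat gene, had 4.66, 4.59 and 4.56 against 5.02, 5.07 and 4.90. Both differed by -0.39, with limma adjusted p = 0.0232 and 0.0474, and were called in 1 and 0 of the 6 fits without 1 array (ANKDD1B adjusted p 0.0566 to 0.308). DACT1, a modulator of Wnt signalling, differed by -0.38 ± 0.06 (SE) and PHLDA1, a pleckstrin homology-like domain gene, by -0.37 ± 0.06. RNF182, FRMD4B, SYTL2 and PGM2L1 lay between -0.37 and -0.32.

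**Figure D2:**
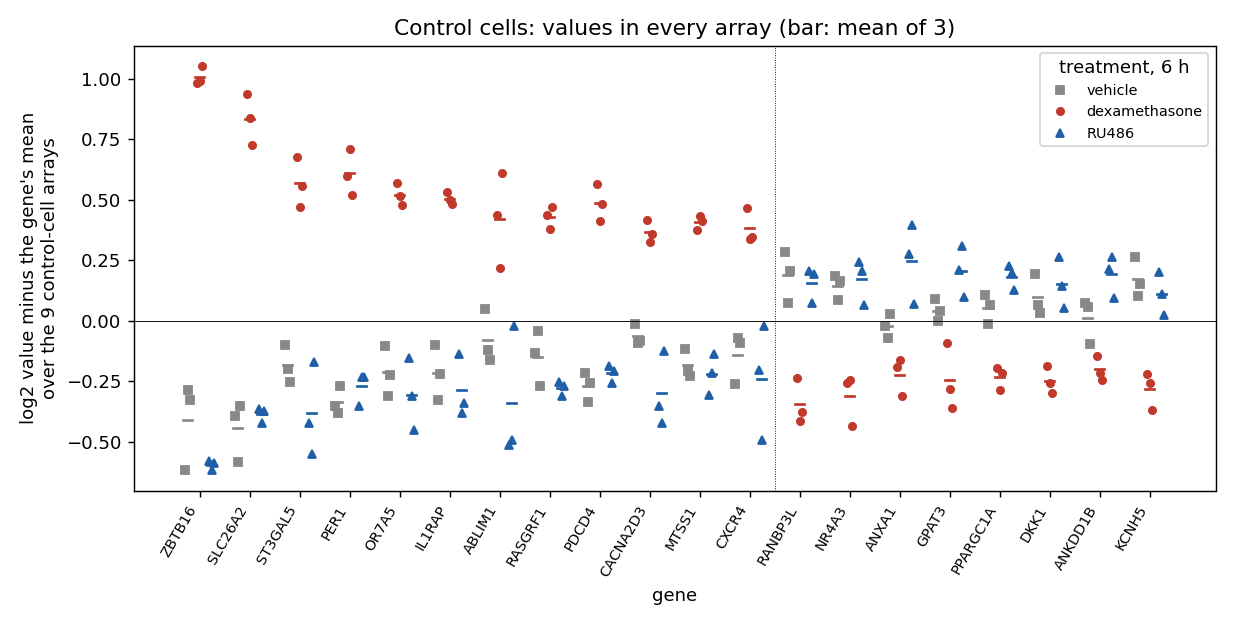
The log2 value of each control-cell array, minus the gene's mean over the 9 control arrays, is plotted for the 12 largest higher and the 8 largest lower called genes; squares are vehicle, circles dexamethasone, triangles RU486, and bars the means of 3. Dexamethasone arrays are all above (left) or all below (right) the RU486 arrays, and for every gene but ANXA1 the vehicle mean lies nearer to RU486 than to dexamethasone.

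Receptor RNA gave no call. NR3C1 stood at 7.40, 7.38 and 7.23 with dexamethasone and at 7.46, 7.40 and 7.31 with RU486, so the groups overlapped. Its difference was -0.05, with a 95% interval of -0.19 to 0.08 (intervals here are per gene and not adjusted over genes). NR3C2, the mineralocorticoid receptor gene, differed by 0.17 (-0.05 to 0.38) and PGR, the progesterone receptor gene, by 0.02 (-0.12 to 0.16). A missed threshold does not show that the ligands acted alike, and these intervals leave room for differences of the sizes they span.

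A list of known glucocorticoid-induced genes, chosen with earlier results of these data known, had 39 measured members. Of these, 6 were called higher with dexamethasone and none lower: PER1, ZBTB16, ERRFI1, NFKBIA, BCL6 and MERTK. Over all genes 0.288% were called higher. Without 1 of the compared arrays 3 list members were called, or 4 without RU486 replicate A, and without vehicle replicate B of GRα cells 9. The list's median difference was 0.101 against -0.006 for all genes. Of the 39 differences 28 were positive, against 47.5% over all genes. TSC22D3, which encodes GILZ, read 8.20, 8.28 and 8.36 with dexamethasone and 7.94, 7.82 and 7.89 with RU486. These arrays did not overlap, yet the gene was not called (0.39, 95% interval 0.15 to 0.63, limma adjusted p = 0.293). With fits on only the 9 control arrays or only the 6 compared, its adjusted p was 0.0276 and 0.0474. With array weights it was 0.00899, and without vehicle replicate B of GRα cells 0.0234.

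DUSP1, the MAP kinase phosphatase, differed by 0.31 (0.15 to 0.47, limma adjusted p = 0.115, or 0.00423 with array weights) and KLF9, a Krüppel-like factor, by 0.19 (0.04 to 0.34). Without vehicle replicate B of GRα cells the limma adjusted p of DUSP1 was 0.0241. SGK1, a kinase that corticosteroids induce in many tissues, lay at 7.08, 7.05 and 7.01 with dexamethasone and at 7.23, 7.31 and 7.26 with RU486. Its arrays were separate with dexamethasone on the lower side, and it was not called (-0.22, -0.37 to -0.06, adjusted p = 0.496). Named after their values were seen, DDIT4, an inhibitor of mTORC1, differed by 0.46 (0.20 to 0.72, adjusted p = 0.214) and DUSP10, another MAP kinase phosphatase, by -0.34 (-0.57 to -0.12, adjusted p = 0.407) without a call. DDIT4 was called higher with array weights (limma adjusted p = 0.0428) and without vehicle replicate B of GRα cells (0.0425).

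On a list of inflammatory genes that glucocorticoids repress in other cells, 0 of 25 measured members were called with limma in either direction. Their median difference was 0.020, and the largest by size was the collagenase gene MMP1 at 0.28 (0.08 to 0.48, adjusted p = 0.509). Members such as MMP1 (means 4.92 with dexamethasone and 4.64 with RU486) and IL6 (4.47 and 4.44) lay below the first quartile of all genes, 5.55. Others, such as NFKB1 (7.25 and 7.28), lay above it. Detection above background was not tested, so for the dim members a missing call cannot tell absent repression from absent signal. VCAM1, an adhesion molecule gene named after its values were seen, differed by -0.26 (-0.42 to -0.11, adjusted p = 0.279), with no overlap between the ligands. It was called lower with array weights (0.0158) and without vehicle replicate B of GRα cells (0.0235). Over all genes 1102 had an unadjusted p under 0.05.

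Steroidogenic genes gave 0 calls among 22 measured, with a median of -0.004. STAR, which brings cholesterol into mitochondria, had 10.43, 10.36 and 10.39 with dexamethasone and 10.27, 10.22 and 10.28 with RU486, separate arrays with a difference of 0.14 (-0.02 to 0.29). CYP11A1, the side-chain cleavage enzyme, differed by 0.08 (-0.09 to 0.25), and CYP17A1, which leads toward cortisol and androgens, by 0.02 (-0.14 to 0.18). The enzymes of the last steps to cortisol and aldosterone, CYP11B1 and CYP11B2, differed by 0.07 (-0.18 to 0.31) and -0.10 (-0.32 to 0.12). HSD3B2 was the least certain, at -0.23 (-0.55 to 0.09), with RU486 arrays of 7.18, 6.82 and 7.55. FDX1, the ferredoxin that passes electrons to mitochondrial P450 enzymes, was nearest to a call: 8.91, 8.83 and 8.94 against 8.67, 8.57 and 8.53. Its arrays did not overlap (0.30, 0.16 to 0.45, limma adjusted p = 0.0729), and 5 alternative settings called it higher, with adjusted p from 0.00723 (array weights) to 0.0379 (without the dimmest genes).

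**Figure D3:**
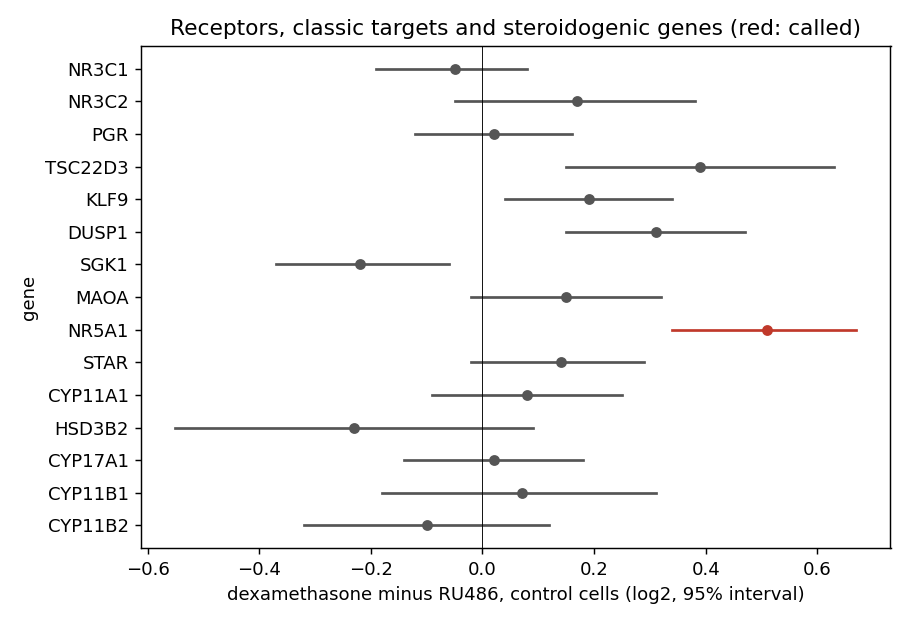
Points give the log2 difference between dexamethasone and RU486 in control cells for 15 receptors, classic targets and steroidogenic genes, and lines the 95% interval from the limma fit, not adjusted over genes. NR5A1 is called (0.51), while TSC22D3, KLF9, DUSP1 and SGK1 have intervals that leave out 0 without a call over all genes.

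Most other pathway lists held 1 called member. The lists were chosen with earlier results of these data known, so their counts are a description and not a test of the pathways. Over all genes 0.364% were called. Among 11 adrenocortical transcription factors only NR5A1 was called, and among 21 clock genes only PER1, with list medians of 0.062 and -0.004. The 17 genes of MAPK phosphatases and growth factor feedback held DUSP6 and ERRFI1, both higher. Of 23 immediate-early genes and NR4A receptors, CSRNP1 was higher and NR4A3 lower. The cAMP list had PPARGC1A lower among 29, and the annexin list ANXA1 lower among 16.

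Glycosphingolipid synthesis (19 measured) had ST3GAL5 called higher, sulfate handling (16) SLC26A2, the interleukin-1 receptor family (17) IL1RAP, apoptosis (18) PDCD4 and the stress list (19) HERPUD1, each alone. Of 11 olfactory receptor genes of family OR7, OR7A5 was called. OR7C1, named after its values were seen, read 5.84, 5.87 and 5.80 with dexamethasone and 5.00, 5.09 and 5.56 with RU486. RU486 replicate C was apart from A and B, and the gene was not called (0.62, 0.32 to 0.92, limma adjusted p = 0.0878, or 0.0147 without that array). OR7C1 was also called higher with array weights (0.00723), the trend option of eBayes (0.0356) and without vehicle replicate B of GRα cells (0.0122).

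Cell cycle genes gave 0 limma calls among 29, the closest being the cyclin gene CCND2, at 8.74, 8.67 and 8.60 with dexamethasone and 8.88, 8.94 and 8.98 with RU486 (-0.27, -0.38 to -0.15, adjusted p = 0.0556). That 0 depends on the setting: CCND2 was called lower under 5 alternatives, with limma adjusted p from 0.0039 (array weights) to 0.0316 (another quantile normalization). Cholesterol synthesis and uptake gave 0 of 21, with a median of 0.095. The desaturase gene FADS1 was the largest there at 0.36 (0.17 to 0.56, adjusted p = 0.139). It was called higher with array weights (limma adjusted p = 0.0477) and with the trend option of eBayes (0.0408). FADS2, named after its values were seen, differed by 0.34 (0.10 to 0.57, adjusted p = 0.496). Metallothioneins gave 0 of 10, with 9 positive differences and MT1G the largest at 0.27 (0.06 to 0.48). MT1G was called higher with array weights (limma adjusted p = 0.0278).

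The labelled cell type was checked on marker lists. Means of the adrenocortical markers ran from MC2R (5.46 with dexamethasone and 5.47 with RU486) to DLK1 (11.09 and 11.01). Of 12 measured only NR5A1 was called. The mean over that list was 8.88 to 8.93 in the dexamethasone arrays and 8.75 to 8.90 in the RU486 arrays. Of the other cell types' lists, no member was called by limma among 10 chromaffin, 10 fibroblast, 10 endothelial, 11 leukocyte and 9 epithelial markers. The largest differences were CHGA at -0.15, PDGFRB at -0.12, TIE1 at -0.10, CSF1R at 0.11 and KRT8 at -0.16. List means per array, dexamethasone against RU486, were 5.60 to 5.63 against 5.58 to 5.68 for fibroblast, 5.18 to 5.24 against 5.19 to 5.31 for endothelial and 5.30 to 5.33 against 5.24 to 5.36 for leukocyte markers. Those of chromaffin (5.94 to 5.96 against 5.97 to 6.00) and epithelial markers (6.21 to 6.27 against 6.29 to 6.32) were separate and lower with dexamethasone, and their part in the results was not tested. Single markers of other cell types read high, such as FAP (fibroblast, means 9.27 and 9.33) and KRT18 (epithelial, 8.15 and 8.15). Others on those lists read as low as LUM (fibroblast, 3.52 and 3.45). No marker is at 0 on this log2 scale, and detection above background was not tested.

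**Figure D4:**
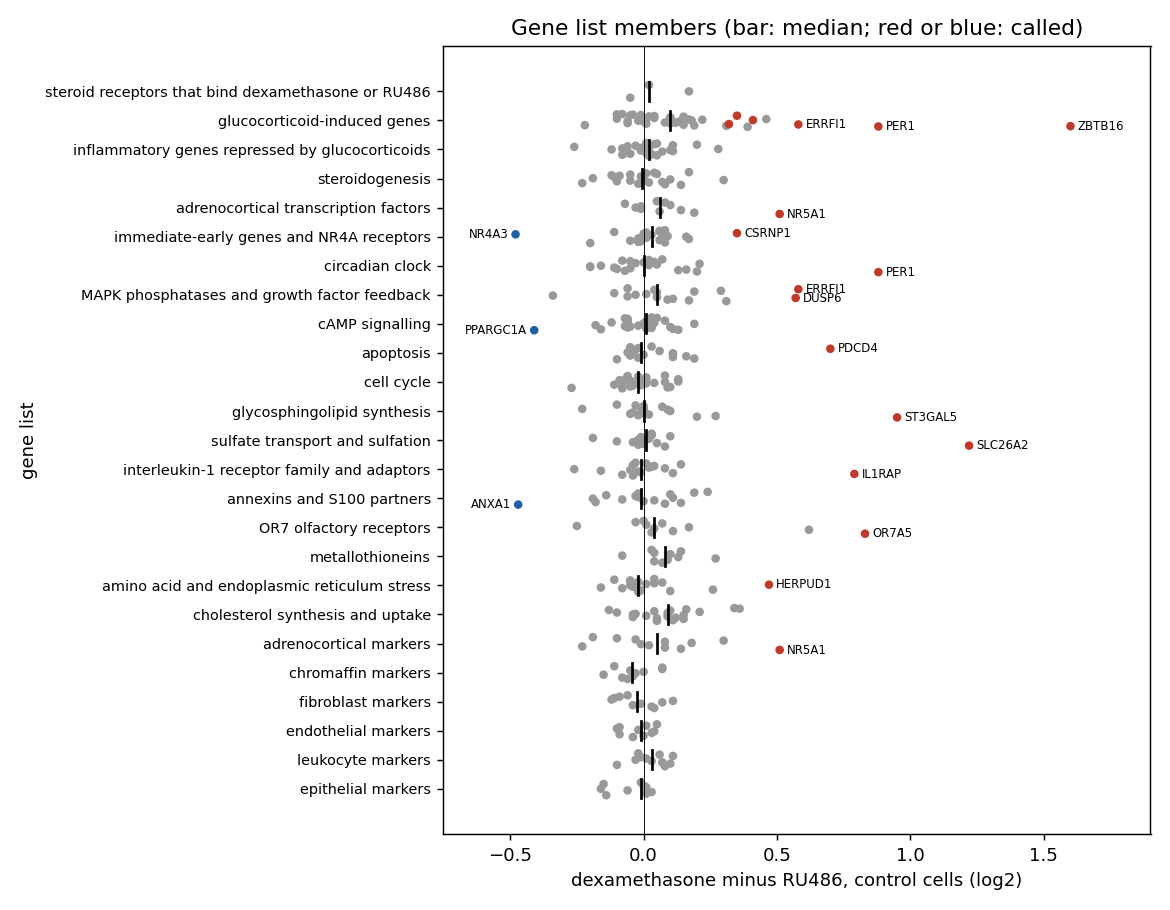
Each point is a measured member of a gene list at its log2 difference between dexamethasone and RU486 in control cells; bars are list medians, and red and blue mark genes called higher and lower. Most lists centre near 0 with 1 or no called member, and the list of glucocorticoid-induced genes holds 6.

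Vehicle arrays place each ligand's part of the difference. They are shared with both comparisons below, and the genes were chosen with the ligand arrays, so the values are a description only. For the 53 higher genes the median was 0.43 for dexamethasone minus vehicle and -0.08 for RU486 minus vehicle. The vehicle mean lay between the ligands for 44 of them, below both for 9 and above both for 0. For the 14 lower genes the medians were -0.30 and 0.07, with the vehicle between the ligands for 12 and above both for 2. Against vehicle alone, RU486 gave 0 calls with limma over all genes, and 621 genes had an unadjusted p under 0.05. Over 18417 genes that is less than a share of 0.05, which unaffected genes would give on average.

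Single genes divided the difference in unlike ways. ZBTB16 had vehicle values of 5.99, 6.32 and 6.28, which put dexamethasone 1.42 above and RU486 0.19 below in the mean (-0.19). SLC26A2 had 7.56, 7.37 and 7.60, with dexamethasone 1.28 above and RU486 at 0.06. ANXA1 was at 6.37, 6.32 and 6.42, between the ligands, with -0.20 for dexamethasone and 0.27 for RU486. All RU486 arrays of ANXA1 were above all vehicle arrays and all its dexamethasone arrays below them. NR5A1 likewise had vehicle values of 8.66, 8.72 and 8.69, with 0.34 for dexamethasone and -0.16 for RU486. ABLIM1 (0.51 and -0.26), CACNA2D3 (0.43 and -0.23) and ST3GAL5 (0.75 and -0.20) also had RU486 means below vehicle, whereas PER1 (0.95 and 0.07) and PDCD4 (0.75 and 0.05) did not. None of these RU486 differences from vehicle was called. The dexamethasone differences from vehicle were also not called for ANXA1, NR5A1, ABLIM1 and CACNA2D3 (limma adjusted p from 0.0866 to 0.892). They were called for ZBTB16, SLC26A2, ST3GAL5, PER1 and PDCD4.

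The same comparison in GRα cells, 3 dexamethasone against 2 RU486 arrays, shares no array with the control cells but shares the estimate of the spread. It gave 137 genes higher (0.744% of those tested) and 28 lower (0.152%). All 53 higher genes of control cells had the same sign there and 43 were called, which is 81.1% of the control list and 31.4% of the GRα list. Their median difference was 0.59, and 39 of the 53 were larger in GRα cells. Of the 14 lower genes 13 had the same sign, 2 were larger in size in GRα cells and 6 were called, 42.9% of the control list and 21.4% of the GRα list, with a median of -0.33. ANKDD1B was the exception at 0.19. RU486 minus vehicle in GRα cells had a median of -0.01 for the 53 genes and 0.00 for the 14.

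The difference between the lines was called for 5 of 18417 genes (0.0271%). ZBTB16 and OR7A5 were among them: ZBTB16 stood at 8.87, 8.75 and 8.72 with dexamethasone and 6.14 and 6.42 with RU486 in GRα cells, a gap of 2.50 against 1.60 in control cells. OR7A5 stood at 6.17, 6.10 and 6.04 against 4.28 and 4.46, a gap of 1.73 against 0.83. The lines differed by 0.90 ± 0.13 for ZBTB16 and 0.91 ± 0.12 for OR7A5 (SE, limma adjusted p = 0.0132 for both). Other large control genes had no such call: the line difference was 0.41 for PER1 (95% interval 0.20 to 0.63, adjusted p = 0.508), 0.21 for ST3GAL5 (-0.08 to 0.51) and -0.06 for NR5A1 (-0.31 to 0.19). TMEM100, NNMT and MAOA, the other 3 called, were not called between the ligands in control cells, where they differed by 0.42, 0.11 and 0.15. All 5 were lost in some fits without 1 array. Without GRα RU486 replicate B, control RU486 replicate A or control dexamethasone replicate B, 0 line differences were called with limma. Unadjusted p was under 0.05 for 860, 639 and 669 genes in these fits. Each is less than a share of 0.05 of the 18417 genes, which unaffected genes would give on average.

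**Figure D5:**
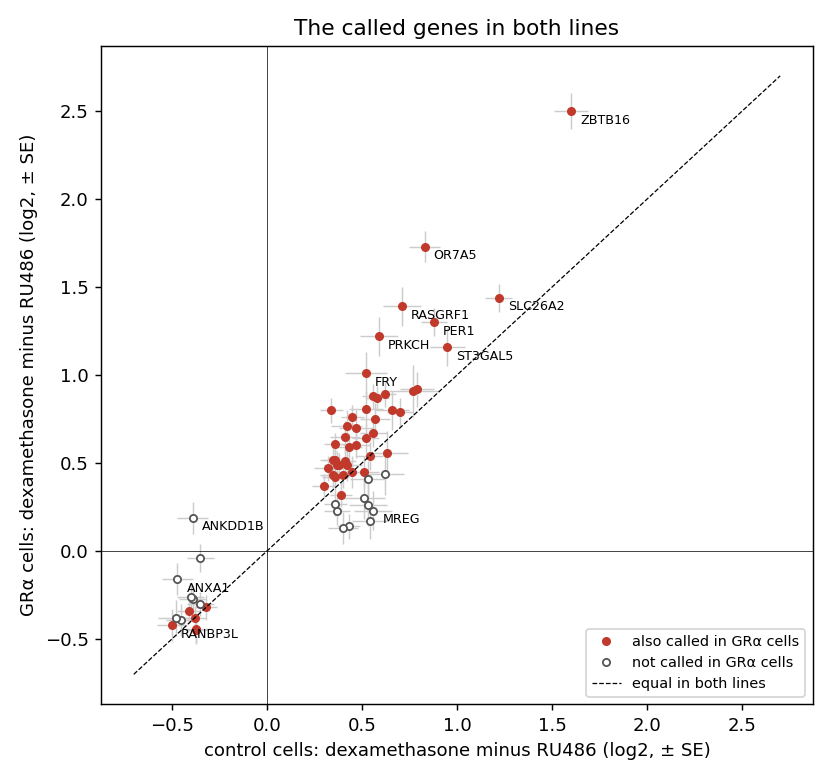
Log2 differences between dexamethasone and RU486 (± SE) for the 67 genes called in control cells, with control cells on the x axis and GRα cells on the y axis; filled points are also called in GRα cells, and the dashed line marks equal differences. All higher genes lie above 0 in GRα cells, and ZBTB16 and OR7A5 lie far above the dashed line at 2.50 and 1.73.

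The promoters of called genes were searched for the receptor's half-site, AGAACA or its reverse complement TGTTCT, in the 250 bases before the start. RefSeq promoters (GRCh38.p14) were matched for 14237 of the 18417 genes, and 9.08% of those windows held a half-site on either strand. Of the 53 higher genes 39 were matched and 3 (7.69%) held one, and of the 14 lower genes 12 were matched and 0 held one. An exact inverted repeat of the 2 half-sites with a gap of 3 bases was in none of the 14237 windows. This search asked for every base of both half-sites and could miss looser repeats, so its 0 does not show that response elements are absent. The windows with a half-site are shown because they are where such letters occur near a called gene's start; they are written on the gene's strand, with half-sites in capitals. They lie at chr11:111305049-111305298 for COLCA1, chr1:147172471-147172720 for PRKAB2 and chr3:39154642-39154891 for CSRNP1, all on the minus strand.
COLCA1: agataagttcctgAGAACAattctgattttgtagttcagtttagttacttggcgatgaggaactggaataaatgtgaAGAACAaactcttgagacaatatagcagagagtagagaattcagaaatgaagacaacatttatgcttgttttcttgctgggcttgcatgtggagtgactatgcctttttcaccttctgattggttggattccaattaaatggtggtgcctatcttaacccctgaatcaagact
PRKAB2: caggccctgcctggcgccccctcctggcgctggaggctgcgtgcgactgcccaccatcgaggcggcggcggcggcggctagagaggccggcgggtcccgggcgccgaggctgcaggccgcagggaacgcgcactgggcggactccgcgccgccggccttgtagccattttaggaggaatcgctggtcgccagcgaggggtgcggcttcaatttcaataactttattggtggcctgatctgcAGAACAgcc
CSRNP1: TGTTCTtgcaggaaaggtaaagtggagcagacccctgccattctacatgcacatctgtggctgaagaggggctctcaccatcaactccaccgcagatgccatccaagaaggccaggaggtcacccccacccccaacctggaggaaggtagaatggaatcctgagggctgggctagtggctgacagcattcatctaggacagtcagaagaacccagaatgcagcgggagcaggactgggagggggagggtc
Half-sites start at -237 and -173 in COLCA1, at -9 in PRKAB2 and at -250 in CSRNP1, counted back from the start. The 3 genes were higher with dexamethasone by 0.51, 0.45 and 0.35 log2. Matches in letters are a description: binding was not measured, and sites outside the window were not searched.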

How the data were processed

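The deposited table holds log2 values of 29153 probe sets for 17 of 18 described arrays. Per the submitters' processing notes the authors used RMA, which corrects background, quantile-normalizes and summarises probes, and limma, with versions and build not given in the sources used here. Since arrays share a distribution, quantile normalization would hide a shift of most RNAs in 1 direction. Replicate A of GRα cells with RU486 failed quality control per the labels and has no values.

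Probe sets with 1 symbol (19460; 1754 had several, 7939 none) were renamed through RefSeq, which matched 19429, and the probe set with the highest mean stood for each of 18417 genes (769 had several). FKBP5, CYP21A2 and NR0B1 are not analysed here. One limma fit (3.58.1, R 4.3.3) with a mean per group over 17 arrays had 11 residual degrees of freedom and 5.89 from the prior. All tests were two-sided. Errors are standard errors (SE). An exact permutation test of 3 against 3 arrays cannot go below p = 0.1. No arrays held identical values. The fit was tested on simulated data.

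Members and 25 lists (409 of 439 genes measured) were chosen with earlier results of these data known. Any called gene may be named; array values are given for the 12 largest higher and 8 largest lower, and fixed receptor, target and steroidogenic genes are named always, as are called list members, or the largest where none was called. Alternatives were normalization, weights, filters, gene units, arrays fitted, the replicate letter as a block, thresholds and leaving out each array.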

Additional observations from a re-analysis of the deposited data

Results flagged for a closer look

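The gap between dexamethasone and RU486 differed between GRα and control cells for 5 genes, by the test of that difference in limma (adjusted p under 0.05), which rests on only 2 RU486 arrays of GRα cells. TMEM100, a membrane protein gene, had 5.94, 5.61 and 5.79 with dexamethasone and 5.40, 5.13 and 5.53 with RU486 in control cells, against 6.88, 7.20 and 6.86 and 5.18 and 5.47 in GRα cells. Its lines differed by 1.22 ± 0.19 (SE, adjusted p = 0.0284), a call kept in 4 of 11 fits without 1 array. NNMT, nicotinamide N-methyltransferase, had 5.74, 5.92 and 5.94 against 5.76, 5.72 and 5.80 in control cells, which overlap, and 6.79, 6.68 and 6.84 against 5.75 and 5.75 in GRα cells. The difference of 0.91 ± 0.14 (SE, adjusted p = 0.0232) was called in 2 of 11 such fits.

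MAOA, the monoamine oxidase, had 5.99, 6.02 and 6.08 against 5.93, 5.89 and 5.82 in control cells and 5.97, 6.19 and 6.14 against 5.13 and 5.02 in GRα cells. Its dexamethasone arrays overlapped between the lines and the RU486 arrays of GRα cells were lower. RU486 minus vehicle was 0.01 in control cells and -0.01 in GRα cells, so the lower level was also that of vehicle in GRα cells. The lines differed by 0.87 ± 0.12 (SE, limma adjusted p = 0.0132), called in 7 of 11 fits. OR7A5 (0.91) and ZBTB16 (0.90), larger in GRα cells, were called in 8 and 6 of 11 fits without 1 array.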

How the results depend on the processing

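No difference named in the text changed sign while called. The counts called in control cells (67, of which 53 higher and 14 lower) became 214, 129 and 85 with array weights, 105, 80 and 25 with the trend option of eBayes, 37, 33 and 4 at an adjusted p under 0.01, and 29, 28 and 1 at 0.5 log2 or more. Fitting only the 6 compared arrays gave 50, with 6 lower. The fits without 1 array left out a compared array or vehicle replicate B of GRα cells, and no other array. They gave 29 to 113 in all, 27 to 86 higher and 2 to 27 lower. In GRα cells the 165 became 54 with only the compared arrays, 83 at 0.01, 78 at 0.5 log2 and 67 to 259 without 1 array. The 5 line differences became 17 with weights, 8 with the trend, 0 at 0.01 with limma and 0 to 7 without 1 array. Unadjusted limma p for that difference was under 0.05 for 768 genes, less than a 0.05 share of all genes. The cause of these changes was not tested. Same-letter replicates of the 2 ligands correlated in their deviations at 0.0335 to 0.0835, and other letters at -0.114 to 0.0519. Between vehicle and a ligand the same letters ranged from -0.0239 to 0.324 and other letters from -0.366 to 0.274. The main fit did not take the letters as pairs, and what they share was not tested. With a replicate block over all arrays 55 genes were called (44 higher, 11 lower). With a replicate block and only the 6 arrays 28 were called (24 and 4), and 26 of the 67 calls were kept. Other normalizations, gene units, the dim filter and the robust option gave 62 to 89. Of the 67 calls, 62 to 67 were kept under those settings, except that the dim filter left 3 untested and kept 64.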
